A study of Mus musculus with 12 samples.

Results

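The genes described here encode the translation initiation factors and their regulators in mouse embryonic fibroblasts (MEFs). They were taken from the count table by name, as the symbols that start with Eif and a digit, leaving out 1 gene of the Eif2ak group and names ending in -ps. The rule found 54 of 24062 symbols and used no measured value. They comprise 3 eIF4E-binding proteins (Eif4ebp1, Eif4ebp2, Eif4ebp3), 5 cap-binding proteins and partners, 3 eIF4G scaffolds, 5 helicases and cofactors, 3 eIF2 kinases, 4 eIF2 subunits, 5 eIF2B subunits, 2 alternative tRNA factors, 14 eIF3 subunits, 5 genes of eIF1 and eIF1A, and 5 genes of eIF5, eIF5A, eIF5B and eIF6. Of these, 51 passed the filter on low counts and were tested. Eif3j1 and Eif3j2, near-identical copies that counting can leave without reads, were listed at 0 counts in all 12 libraries, and Eif4e1b had 1 count in each of 2 shBruce libraries.

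The study asked how BRUCE, the large ubiquitin-conjugating protein encoded by Birc6, acts in autophagy. RNA was sequenced from MEFs stably expressing shRenilla, an shRNA against Renilla luciferase that serves as the control, and from MEFs expressing shBruce#1, an shRNA against Birc6. Each line was either grown in full medium (FM) or starved for 2 h in medium lacking serum and amino acids (Starv), which gave 4 conditions with 3 replicates each. Both lines carry a retroviral shRNA, and each shRNA is represented by a single line, so the knockdown and any other difference between the lines cannot be told apart. The sources used here do not say whether replicates came from separate cultures, so p-values measure the spread between these libraries, which may be technical.

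Translation initiation joins the small ribosomal subunit, the initiator tRNA and an mRNA. The cap-binding protein eIF4E, the scaffold eIF4G and the helicase eIF4A form the complex that loads the mRNA, and the 4E-BP proteins block it by holding eIF4E when mTORC1, the kinase that senses amino acids and growth factors, is inactive. The initiator tRNA is brought by eIF2, whose exchange factor eIF2B is inhibited when eIF2 kinases such as GCN2, the sensor of uncharged tRNA, phosphorylate eIF2.

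Total counts ranged from 7717265 (shBruce Starv replicate 1) to 18510540 per library. Normalized read counts below are counts scaled to a common library size. Birc6 had normalized counts of 4682, 3273 and 5061 in shRenilla FM, 1207, 1265 and 1390.4 in shBruce FM, 4759, 4712 and 2787 in shRenilla Starv and 1175, 703 and 1226 in shBruce Starv, with no overlap between the lines. The log2 fold change between the lines was -1.75 ± 0.25 (standard error) in FM, which did not pass the test (adjusted p = 0.0627, edgeR quasi-likelihood test), and -1.98 ± 0.25 in Starv, which did (adjusted p = 0.0186). The shBruce Starv libraries stood apart from each other, with correlations across genes of 0.952 between replicates 1 and 3, 0.971 between 1 and 2 and 0.974 between 2 and 3, against 0.979 to 0.996 within the other conditions. Replicate 1 also had the lowest depth, and values or calls of the members that passed between the lines in Starv are given with and without it. Deviations from a gene's mean followed transcript length in several libraries, with Spearman correlations from -0.57 to 0.52. Of 8 fibroblast markers, Vim, Fn1, Col1a1, Col1a2, S100a4, Pdgfrb and Col3a1 were present in every library, while Thy1 had at most 2.45 normalized counts. The 4 epithelial markers summed to at most 12.5 outside shBruce Starv, where they reached 44.4 in replicate 1 with Krt18 at 32.3 and Epcam at 2.02. Of the pluripotent markers, Pou5f1 had at most 2.02, and Sox2 had 104 to 638 in the libraries. Among the endothelial markers, Pecam1 had at most 5.38 and Cdh5 at most 14.1. Kdr had 32.6, 20.7 and 25.1 in shRenilla FM and 10.6, 16.7 and 1.98 in shBruce FM. In Starv it had 39.1, 51.9 and 33.3 in shRenilla and 20.2, 14.9 and 22.3 in shBruce MEFs. The lines did not overlap for Kdr, but it did not pass between them in either medium (edgeR).

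Read counts per kilobase of exon spanned a wide range among the initiation factors. Averaged over the 4 conditions, Eif5a, which helps ribosomes through difficult sequences and stands highest, reached 8005 normalized counts per kilobase. It was followed by the eIF3 subunits Eif3h at 5027, Eif3b at 4813, Eif3a at 4372 and Eif3g at 3973. The lowest were the cap-binding paralogue Eif4e3 at 17.1 and the scaffold Eif4g3 at 17.98. Among the 4E-BP genes Eif4ebp1 stood highest in each condition, with 544 normalized counts per kilobase in shRenilla FM against 381 for Eif4ebp3 and 163 for Eif4ebp2. Eif4e itself had 489 per kilobase in the same condition, below its partners Eif4a1 at 2495 and Eif4g1 at 4311. The members together took between 1.59% and 1.98% of a library's counts. Their share did not pass an exact permutation test in any of the 4 comparisons of conditions (p = 0.2 to 0.4), where the smallest p that 3 libraries against 3 allow is 0.1.

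**Figure D1:**
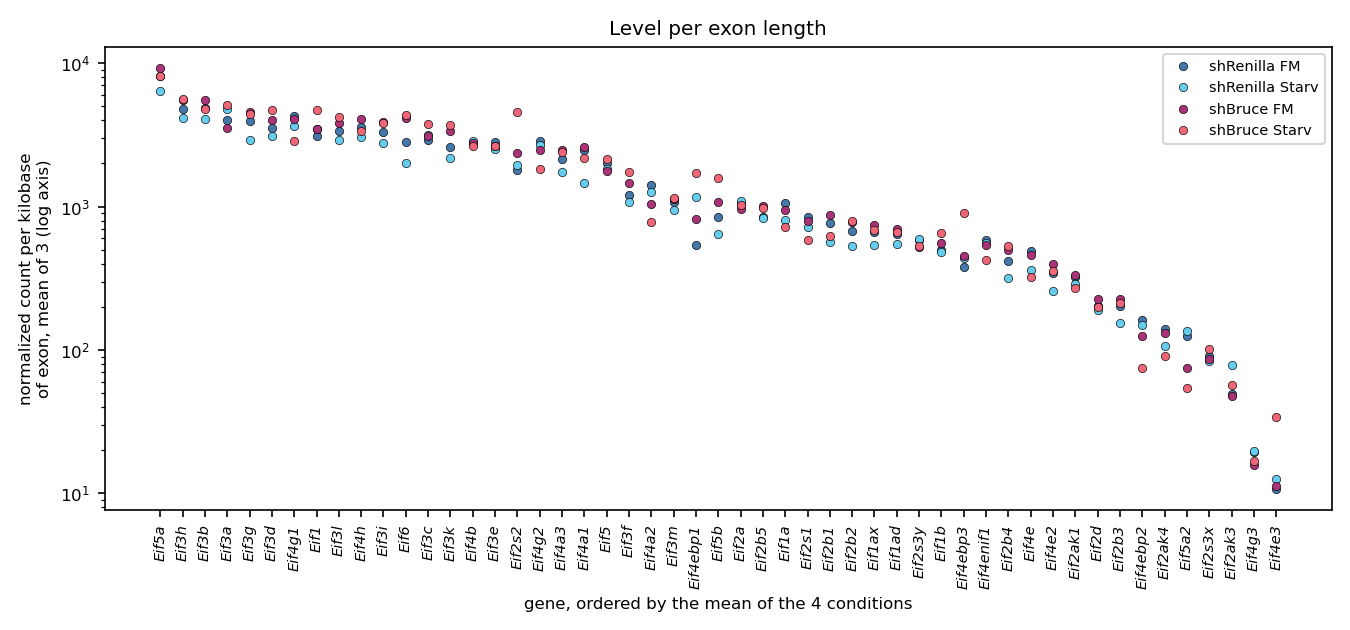
Mean normalized read count per kilobase of exon (log axis) of the 51 tested initiation factor genes in each of the 4 conditions (3 libraries each), ordered by the mean over conditions. Eif5a is highest at 8005 and Eif4e3 lowest at 17.1, and the conditions spread most for genes such as Eif4ebp1 and Eif2s2.

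The first question is what starvation did to these transcripts. In shRenilla MEFs, Eif4ebp1 rose 2.16-fold, whereas the helicase gene Eif4a1, the cap-binding protein gene Eif4e, Eif2b1 and Eif1a fell. These 5 of 51 members passed the test (edgeR quasi-likelihood test, Benjamini-Hochberg adjusted p under 0.05), while 17.0% of the 12154 genes tested did. In detail, 1 member was higher, against 9.69% of all genes, and 4 were lower, against 7.27%. At an unadjusted p under 0.05 there were 13, where 31.6% of all genes were. The members as a group lay slightly below the rest, with a median log2 fold change of -0.19 against -0.01 for all genes, and 13 of 51 were above 0. The 3 Starv and 3 FM libraries did not overlap for 29 members, 4 higher and 25 lower, where 52.4% of all genes did not overlap (25.9% higher and 26.5% lower). The count of 5 became 1 with shRenilla Starv replicate 1 left out and 2 with any other shRenilla library left out, while leaving out replicate 1 or 3 of shBruce Starv gave 11 or 13. The share of all genes called moved likewise, to 9.34% to 12.2% without a shRenilla library and to 26.2% or 25.5% without replicate 1 or 3 of shBruce Starv. With upper-quartile normalization 1 rose and 1 fell.

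In shBruce MEFs 11 of 51 members passed the test for starvation, where 23.0% of all genes did, and 17 were at an unadjusted p under 0.05, where 36.3% of all genes were. The 5 genes that rose were Eif4e3, Eif4ebp1, Eif4ebp3, Eif2s2 and Eif1 (12.4% of all genes rose), and the 6 that fell were Eif2ak4, Eif4e, Eif4g1, Eif2b1, Eif2s1 and Eif1a (10.6% fell). The median over the members was -0.02, close to 0.02 for all genes, and 24 of 51 were above 0. With upper-quartile normalization these medians were 0.06 and 0.11. Libraries did not overlap for 13 members, 3 higher and 10 lower, where 30.9% of all genes did not (16.2% higher and 14.8% lower). With upper-quartile normalization 6 rose and 4 fell. The count of 11 became 3, 5 or 6 with replicate 1, 2 or 3 of shBruce FM left out, 7 or 18 with replicate 1 or 3 of shBruce Starv left out, and 1 when only the shBruce libraries entered the fit. The shares of all genes called in these fits were 15.6%, 15.1%, 20.9%, 23.9%, 32.7% and 8.11%. Eif4ebp1 was higher, and Eif1a, Eif2b1 and Eif4e were lower, past the test in both lines. Of the markers of other cell types, the pluripotency gene Sox2 was lower in starved shRenilla MEFs (-1.70, adjusted p = 0.00726, edgeR). The macrophage gene Cd68 was lower in starved shBruce MEFs (-0.65, adjusted p = 0.0386). Ptprc, the other leukocyte marker tested, went the other way there, at 0.89, and did not pass. These lists summed to at most 641 and 144 normalized counts in a library, and their part in these results was not tested.

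**Figure D2:**
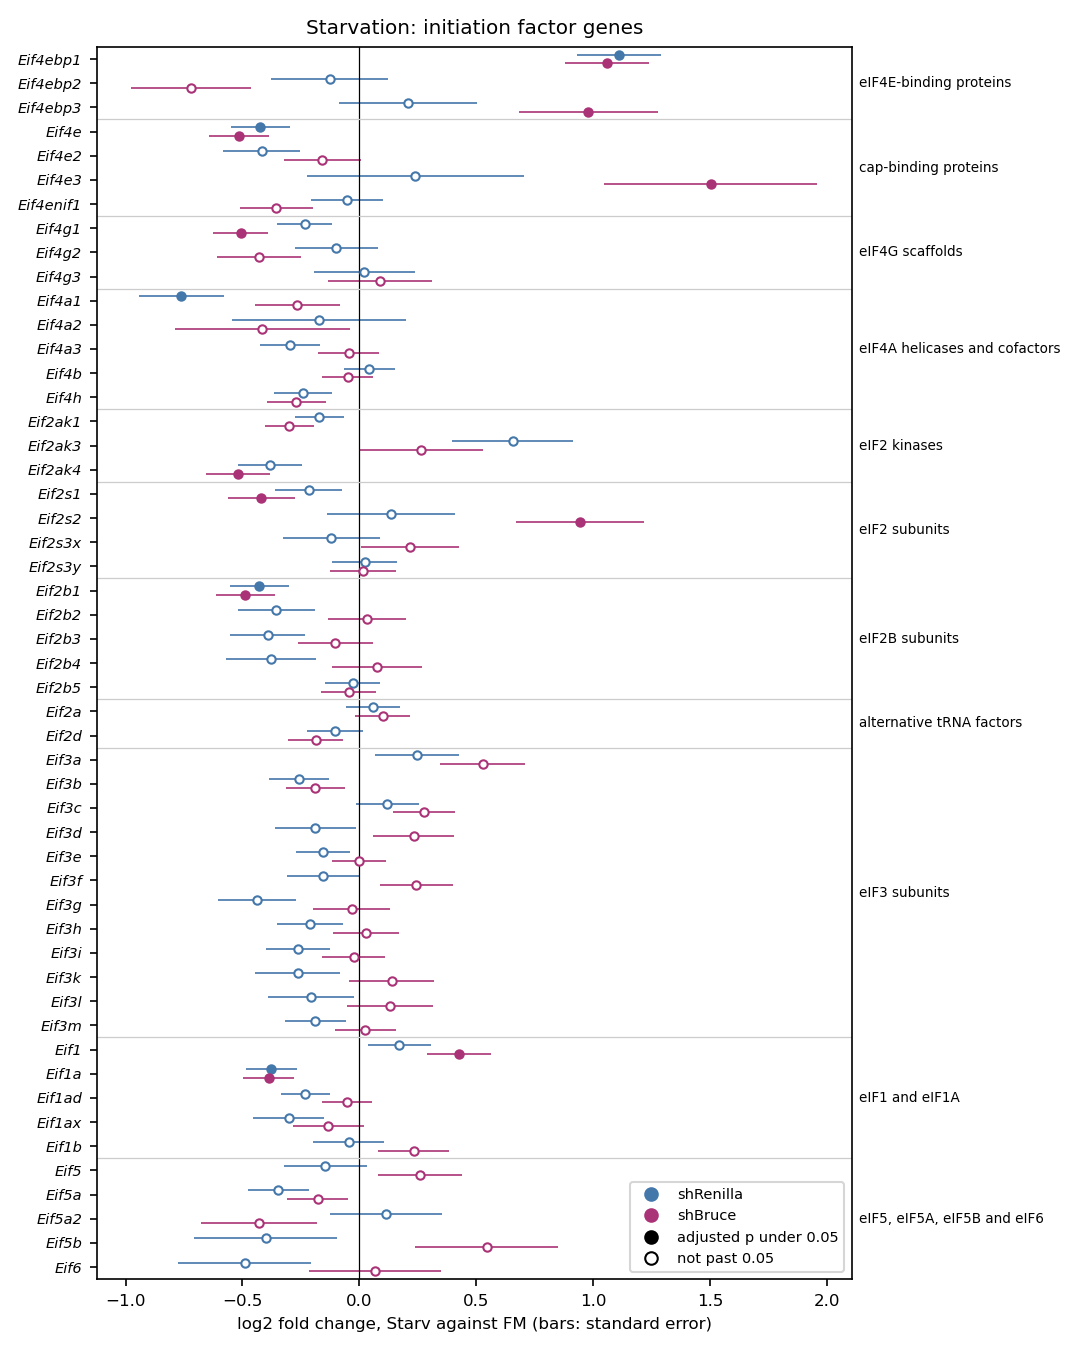
Log2 fold change of Starv against FM (horizontal axis, bars are standard errors) for the 51 tested genes, grouped by role, in shRenilla (blue) and shBruce (purple) MEFs, with filled points for an adjusted p under 0.05. Eif4ebp1 lies near 1 in both lines (1.11 and 1.06), and Eif4a1 at -0.76 is the lowest in shRenilla.

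Among the regulators, Eif4ebp1 (chr8:27260329-27276674 in GRCm38, plus strand, protein coding), which encodes the eIF4E inhibitor 4E-BP1, gave the clearest change. Its normalized counts were 1071, 1174 and 1012 in shRenilla FM and 2122, 2144 and 2766 in shRenilla Starv. In shBruce MEFs they were 1317, 1550.4 and 2058 in FM and 4023, 3435 and 2816 in Starv. Every starved library was above every FM library of either line. The log2 fold change was 1.11 ± 0.18 in shRenilla (2.16-fold, adjusted p = 0.00105, edgeR) and 1.06 ± 0.18 in shBruce MEFs (2.08-fold, adjusted p = 0.00119). It passed in each of the 12 fits that left out a library and in each of the 10 other alternatives. The difference in response between the lines was -0.05 (95% confidence interval -0.60 to 0.49).

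The paralogues Eif4ebp2 and Eif4ebp3, which encode the other two 4E-BP proteins, followed other patterns. Eif4ebp2 had 928, 822 and 1076 normalized counts in shRenilla FM and 984, 946 and 658 in shRenilla Starv, which overlapped. It had 704, 753 and 712 in shBruce FM and 371, 279.5 and 658 in shBruce Starv, where each starved library was lower, but its change of -0.72 ± 0.26 missed the threshold (adjusted p = 0.0586, edgeR). That change passed with DESeq2, limma-voom or no filter on low counts, and without shBruce Starv replicate 3. It also passed with length and GC trends removed, with or without the replicate block. Eif4ebp3 had 324, 383 and 310.4 in shBruce FM and 1059.7, 603 and 361 in shBruce Starv. Its rise of 0.98 ± 0.30 in shBruce MEFs (adjusted p = 0.0302) was 0.49 (adjusted p = 0.125) with shBruce Starv replicate 1, its highest library, left out. Annotated exons of a read-through gene on the same strand cover 67.3% of the exons of Eif4ebp3, so its counts are uncertain.

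**Figure D3:**
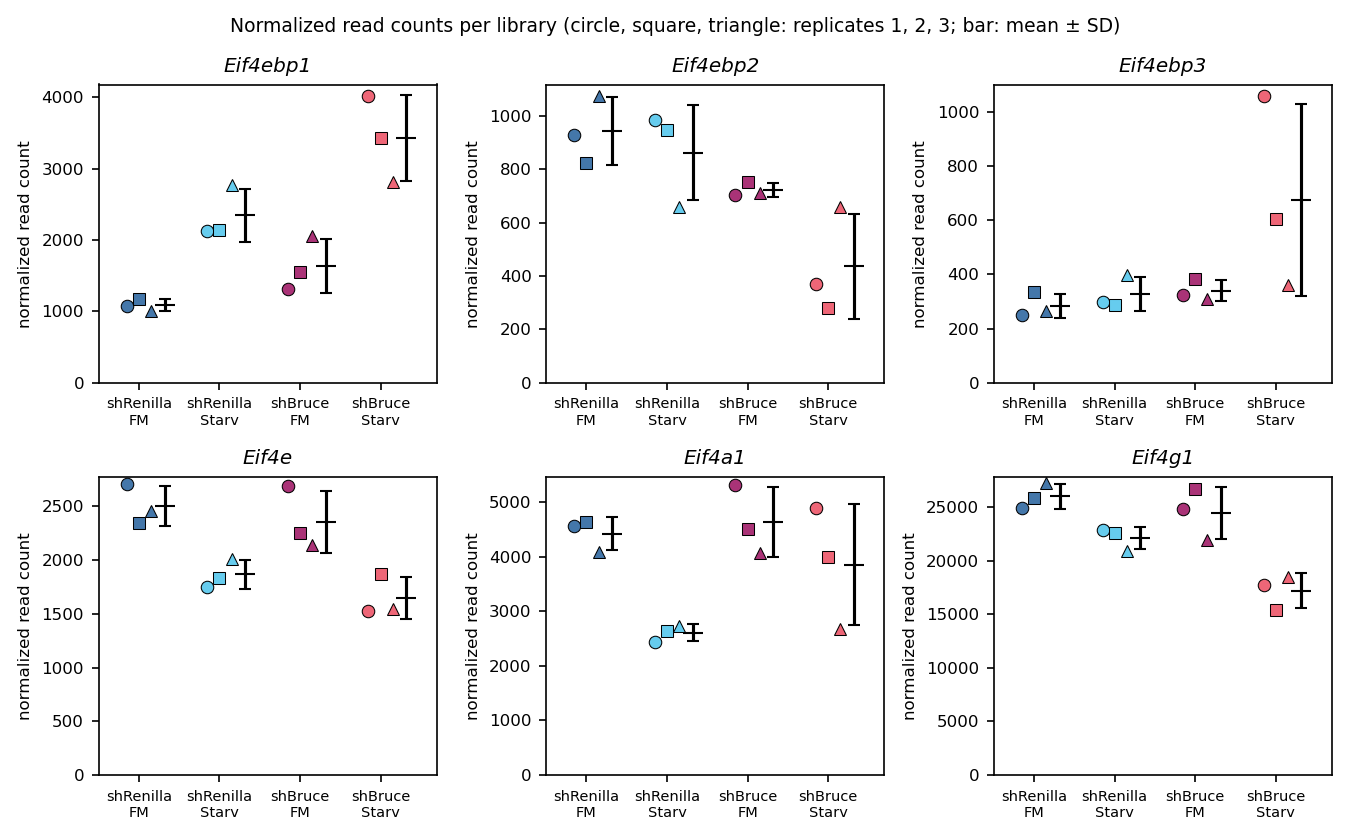
Normalized read count (vertical axes from 0) of 6 initiation genes in each library, by condition, with a symbol per replicate and the mean ± SD of 3 beside it. Eif4ebp1 is higher and Eif4e lower in every starved library of both lines, while Eif4ebp3 spreads from 361 to 1059.7 within shBruce Starv.

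Of the cap-binding proteins, Eif4e (chr3:138526179-138559696, plus strand), which encodes the main cap-binding subunit, fell in both lines. Its normalized counts were 2711, 2346 and 2456 in shRenilla FM, 1751, 1836 and 2012 in shRenilla Starv, 2684, 2248 and 2136 in shBruce FM and 1522, 1869 and 1548 in shBruce Starv. No starved library reached the lowest FM library of either line. The log2 fold change was -0.42 ± 0.13 in shRenilla (adjusted p = 0.0357, edgeR) and -0.52 ± 0.13 in shBruce MEFs (adjusted p = 0.0111). In shRenilla it passed in 6 of the 12 fits without a library, those that kept all shRenilla libraries, and in shBruce in 11 of 12, missing without shBruce FM replicate 1. Eif4e also missed in shRenilla with upper-quartile normalization or a block on the replicate number. In shBruce MEFs it also missed with only the shBruce libraries in the fit. Eif4e2, a weaker cap binder linked to repression, had 2504, 2819 and 2436 in shRenilla FM and 1838, 1819 and 2149 in shRenilla Starv without overlap, at -0.42 (adjusted p = 0.0993), and -0.16 (adjusted p = 0.515) in shBruce MEFs. Eif4e3 was scarce, with 24.4, 40.8 and 19.8 normalized counts in shBruce FM and 157, 60.8 and 37.2 in shBruce Starv. Its change of 1.502 ± 0.46 there (adjusted p = 0.0304) became 0.77 (adjusted p = 0.115) without shBruce Starv replicate 1, and the groups overlapped. Eif4enif1, which carries eIF4E into the nucleus, was at -0.05 (adjusted p = 0.851) and -0.36 (adjusted p = 0.116).

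The ratio of Eif4ebp1 to Eif4e per kilobase of exon, computed because the 1 gene rose and the other fell, restates those changes and is given as a description. It was 1.01, 1.28 and 1.06 in shRenilla FM and 3.11, 3.00 and 3.53 in shRenilla Starv. In shBruce MEFs it was 1.26, 1.77 and 2.47 in FM and 6.79, 4.72 and 4.67 in Starv. The mean went from 1.12 ± 0.145 to 3.21 ± 0.280 in shRenilla and from 1.83 ± 0.609 to 5.39 ± 1.21 in shBruce MEFs (SD, n = 3). The Eif4ebp2 to Eif4e ratio overlapped between the media in both lines. It was 0.334 ± 0.0471 in FM and 0.415 ± 0.110 in Starv in shRenilla MEFs. In shBruce MEFs it was 0.275 ± 0.0368 in FM and 0.242 ± 0.124 in Starv. Also as a description, the Eif4ebp1 to Eif4ebp2 ratio was 3.40 ± 0.708 in shRenilla FM, 8.33 ± 3.34 in shRenilla Starv, 6.58 ± 1.57 in shBruce FM and 26.5 ± 12.3 in shBruce Starv.

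The helicases and their cofactors moved unequally. Eif4a1 (chr11:69666936-69672423, minus strand), the main eIF4A helicase gene, had 4558, 4634 and 4084 normalized counts in shRenilla FM and 2447, 2647 and 2741 in shRenilla Starv, well apart. Its change of -0.76 ± 0.18 (0.59-fold, adjusted p = 0.0121, edgeR) passed in 11 of 12 fits without a library, missing without shRenilla Starv replicate 1, and in each of the 10 other alternatives. In shBruce MEFs the values overlapped, with 5324, 4511 and 4062 in FM and 4889, 3995 and 2679 in Starv (-0.27 ± 0.18, adjusted p = 0.31). The difference in response of 0.49 (95% confidence interval -0.06 to 1.05, adjusted p = 0.806) did not pass the test. The paralogue Eif4a2 had 4731, 4262 and 4599.6 in shRenilla FM, 3904, 4047 and 4103 in shRenilla Starv and 3653, 3097 and 3220.2 in shBruce FM. In shBruce Starv its counts were 753, 2783 and 3912, with replicate 1 far below the others. The ratio of Eif4a1 to Eif4a2 per kilobase went from 1.77 ± 0.181 to 1.17 ± 0.0378 in shRenilla MEFs. In shBruce MEFs it was 2.51 ± 0.204 in FM and overlapped in Starv, at 11.7, 2.59 and 1.23. Eif4a3, better known from the exon junction complex, was at -0.30 (adjusted p = 0.136) in shRenilla, and the cofactor genes Eif4b and Eif4h were at 0.04 and -0.24 in shRenilla and -0.05 and -0.27 in shBruce MEFs, without passing.

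Of the scaffolds, Eif4g1 fell in shBruce MEFs, from 24832, 26663 and 21914 normalized counts in FM to 17733, 15365 and 18514 in Starv (-0.51 ± 0.12, adjusted p = 0.0078, edgeR). It passed in 12 of 12 fits that left out a library, but missed with only the shBruce libraries in the fit. In shRenilla MEFs its counts of 24976, 25851 and 27254 in FM and 22844, 22554 and 20960.4 in Starv did not overlap either, at a log2 fold change of -0.23 ± 0.12 that missed the threshold (adjusted p = 0.193). The difference between the lines was -0.27 (95% confidence interval -0.63 to 0.09). Eif4g2, which encodes the scaffold DAP5 that lacks the eIF4E site, was at -0.10 (adjusted p = 0.74) in shRenilla and -0.43 (adjusted p = 0.101) in shBruce MEFs, and Eif4g3 at 0.02 and 0.09.

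Promoter sequences were examined because several members fell with starvation, among them Eif4e in both lines, Eif4a1 in shRenilla and Eif4g1 in shBruce MEFs. Windows from 250 bases before to 50 after a RefSeq start (GRCm38.p6) were found for 42 of the 54 members. None was found for Eif1a, Eif2b3, Eif3e, Eif3h, Eif3i, Eif3j2, Eif4e1b, Eif4e3, Eif4ebp1, Eif4ebp3, Eif4g2 and Eif6. The E-box CACGTG, a palindrome bound by MYC and by the MiT/TFE family to which TFEB belongs, was in the windows of 10 members (23.8%), Eif1b, Eif3a, Eif3f, Eif3k, Eif4a1, Eif4e, Eif4g1, Eif4h, Eif5a and Eif5a2, against 8.09% of all genes in the table. Counted by window it was in 21.8% of 55 member windows and 7.15% of 32851 windows. The background was all 27025 genes with a window, whether or not they were expressed here. The share among the genes tested, or among windows of like GC content, was not computed. The ATF4-type element TGATGNAA, searched on both strands, was in 1 member, Eif2s3x (2.38%), against 4.51% of all genes. Counted by window it was in 1.82% of member windows and 3.97% of all windows. The sites before a RefSeq start of the 3 genes of the cap-binding complex are shown, read along the gene's strand with the E-box in capitals.
Eif4e, chr3:138527030-138527055, plus strand: cgccagcgacCACGTGatcacttttt
Eif4e, chr3:138527194-138527219, plus strand: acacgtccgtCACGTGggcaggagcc
Eif4a1, chr11:69672597-69672622, minus strand: atcgcctccgCACGTGtaaaggtgct
Eif4g1, chr16:20672663-20672688, plus strand: cagtgggtgtCACGTGatggggcgga
The first letter of the E-box lies 228 and 64 bases before a RefSeq start of Eif4e, 189 before that of Eif4a1 and 54 before that of Eif4g1. The sites of Eif4e and Eif4g1 lie inside the annotated genes, which begin at chr3:138526179 and chr16:20668313. The RefSeq starts used for these genes are thus internal. Of the 10 members with an E-box, Eif4a1 and Eif4e fell in shRenilla MEFs and Eif4e and Eif4g1 in shBruce MEFs, so the letters were also present in members that did not pass. A match in these windows is a description of sequence and says nothing of binding.

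In the eIF2 branch, Eif2ak4, which encodes GCN2, had 982, 972 and 1079.8 normalized counts in shRenilla FM, 834, 815 and 678 in shRenilla Starv, 949, 1089 and 805 in shBruce FM and 666, 609 and 709.6 in shBruce Starv. Both lines were lower in starvation without overlap, at -0.38 (adjusted p = 0.0694) in shRenilla and -0.52 (adjusted p = 0.0157) in shBruce MEFs, where it passed. The shBruce call was lost without shBruce FM replicate 2 and with only the shBruce libraries in the fit. In shRenilla MEFs Eif2ak4 passed with DESeq2, with only the shRenilla libraries in the fit, and without replicate 3 of shBruce FM or of shBruce Starv. It also passed there with length and GC trends removed, with or without the replicate block. Eif2ak3, which encodes the endoplasmic reticulum kinase PERK, went from 253, 204 and 263 to 362, 392 and 379 in shRenilla MEFs. These did not overlap, but the change of 0.65 ± 0.26 missed the threshold (adjusted p = 0.101), and in shBruce MEFs it was 0.26 (adjusted p = 0.501). Eif2ak1, which encodes the haem-regulated kinase, was at -0.17 (adjusted p = 0.29) and -0.30 (adjusted p = 0.057). Of the eIF2 subunits, Eif2s1, the phosphorylated alpha subunit, went from 2940.3, 2657 and 2467 in shBruce FM to 1540.2, 2390.0 and 2091 in shBruce Starv (-0.42 ± 0.14, adjusted p = 0.0496), a call that passed in 2 of 12 fits without a library. Eif2s2, the beta subunit, had 4655, 4901 and 4096 in shRenilla FM and 4590.2, 4771 and 5624 in shRenilla Starv, which overlapped. In shBruce MEFs it had 6613, 5499 and 5952 in FM and 18029.7, 10527 and 6196 in Starv, at 0.94 ± 0.27 (adjusted p = 0.0251), and 0.46 (adjusted p = 0.0904) without shBruce Starv replicate 1. The gamma subunit genes Eif2s3x and Eif2s3y were at -0.12 and 0.02 in shRenilla and 0.22 and 0.02 in shBruce MEFs.

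Of the 5 eIF2B subunits, which recharge eIF2 with GTP, Eif2b1 (chr5:124570213-124579131, minus strand) fell in both lines. It had 1517, 1632 and 1484 normalized counts in shRenilla FM, 1092, 1153 and 1199 in shRenilla Starv, 1895, 1869 and 1509 in shBruce FM and 1072, 1366 and 1317 in shBruce Starv, with Starv below FM throughout each line. The changes were -0.43 ± 0.13 (adjusted p = 0.034, edgeR) and -0.49 ± 0.13 (adjusted p = 0.0144). The shRenilla call was lost when any shRenilla library was left out, with upper-quartile normalization and with a block on the replicate number. That in shBruce MEFs was lost without shBruce FM replicate 1 or 2 and with only the shBruce libraries in the fit. In shRenilla MEFs Eif2b2, Eif2b3 and Eif2b4 were at -0.35, -0.39 and -0.38, each without overlap and without passing, whereas in shBruce MEFs they were at 0.03, -0.10 and 0.07. Eif2b5, the catalytic subunit gene, was at -0.03 and -0.05. Eif2a and Eif2d, which can deliver initiator tRNA without eIF2, were at 0.06 and -0.10 in shRenilla and 0.10 and -0.19 in shBruce MEFs.

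No eIF3 subunit passed the test for starvation in either line (edgeR, 0 of 12, with 1 in each line at an unadjusted p under 0.05). These genes encode the large scaffold on the small ribosomal subunit. In shRenilla MEFs 2 of 12 were above 0, with a median of -0.20 and the lowest value for Eif3g (-0.44, adjusted p = 0.0865). Eif3g passed there with length and GC trends removed, with only the shRenilla libraries in the fit, and without shBruce Starv replicate 1 or 3. In shBruce MEFs 8 of 12 were above 0, with a median of 0.08 and the highest value for Eif3a (0.53, adjusted p = 0.0515). Eif3a passed there with DESeq2, upper-quartile normalization or at least 10 counts in every sample, and without shBruce Starv replicate 2 or 3. Of the genes for start codon selection, Eif1a fell in both lines. Its normalized counts were 4746, 4155 and 4287 in shRenilla FM, 3246, 3552 and 3362 in shRenilla Starv, 4373, 3581 and 3830.1 in shBruce FM and 2985, 3014 and 3008 in shBruce Starv. The changes were -0.38 (adjusted p = 0.0312) and -0.39 (adjusted p = 0.0218), and reads of its close homologue Eif1ax (-0.30 and -0.13) could be split between the pair. The shRenilla call of Eif1a was lost when any shRenilla library was left out. It was also lost with upper-quartile normalization, a block on the replicate number or no filter on low counts. In shBruce MEFs it was lost without shBruce FM replicate 1, with upper-quartile normalization and with only the shBruce libraries in the fit. Eif1 rose in shBruce MEFs, from 4871, 4759 and 4207 to 6863, 6558 and 5188 (0.43, adjusted p = 0.0386), a call that held in 3 of 12 fits without a library. Eif1b and Eif1ad were at -0.05 and -0.23 in shRenilla and 0.23 and -0.05 in shBruce MEFs. Eif5, Eif5a, Eif5a2, Eif5b and Eif6 did not pass in either line, with values from -0.49 (Eif6, shRenilla) to 0.54 (Eif5b, shBruce).

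The second question is how the shBruce line differed from the shRenilla line. In FM 0 of 51 members passed the test (edgeR), as did 0% of all genes. At an unadjusted p under 0.05 there were 2, where 14.4% of all genes were. DESeq2 and limma-voom also called 0 members, and a fit of the FM libraries alone called 3, where 5.11% of all genes were called. These 3 were Eif6, higher in each shBruce FM library, and Eif4a2 and Eif5a2, lower in each. The members had a median of 0.15 against 0.01 for all genes, and the lines did not overlap for 14 of 51, 10 higher and 4 lower, where 33.4% of all genes did not (16.4% higher and 17.0% lower). The 2 members at an unadjusted p under 0.05 (edgeR) were Eif4ebp1 and Eif5a2. Eif4ebp1 was at 0.60 ± 0.18 (unadjusted p = 0.00542, adjusted p = 0.286) and higher in each shBruce library. Eif5a2 was at -0.75 ± 0.24 (unadjusted p = 0.00831, adjusted p = 0.297) and lower in each. Eif5a2, the less abundant eIF5A paralogue, had 685, 512 and 705 normalized counts in shRenilla FM and 366, 341 and 420.5 in shBruce FM.

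In Starv 22 of 51 members passed the test between the lines, where 23.9% of all genes did. Of these, 18 were higher in shBruce MEFs, against 12.8% of all genes, and 4 were lower, against 11.2%. At an unadjusted p under 0.05 there were 30, where 41.2% of all genes were. The median over the members was 0.26 against -0.0012 for all genes, and 35 of 51 were above 0. The lines did not overlap for 23 members, 16 higher and 7 lower, where 34.9% of all genes did not (16.4% higher and 18.5% lower). The number of calls depended on single libraries, for the members as for all genes. Leaving out shRenilla Starv replicate 1 or 2, or replicate 2 of shBruce Starv, gave 0, with 23, 23 and 28 at an unadjusted p under 0.05, where 0%, 0% and 0.122% of all genes were called. The median over the members was then 0.23, 0.27 and 0.27. Leaving out replicate 1 of shBruce Starv gave 3 (4.68% of all genes), leaving out its replicate 3 gave 30 (46.7%), and leaving out shRenilla FM replicate 1 or 3 or shBruce FM replicate 2 gave 14 (at most 18.6%). The count was also 0 in a fit of the Starv libraries alone (22 at an unadjusted p under 0.05, 0% of all genes called), and it was 7, where 6.90% of all genes were called, after the dependence of each library on transcript length and GC content had been removed (Eif1ax, Eif2s2, Eif3f, Eif4e2 and Eif5b higher, Eif4ebp2 and Eif5a2 lower). Across the 51 members the Spearman correlation of the line difference with exon length was -0.56 in Starv and -0.52 in FM, and 0.03 and 0.18 with the trends removed, as a description of genes that share these libraries.

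**Figure D4:**
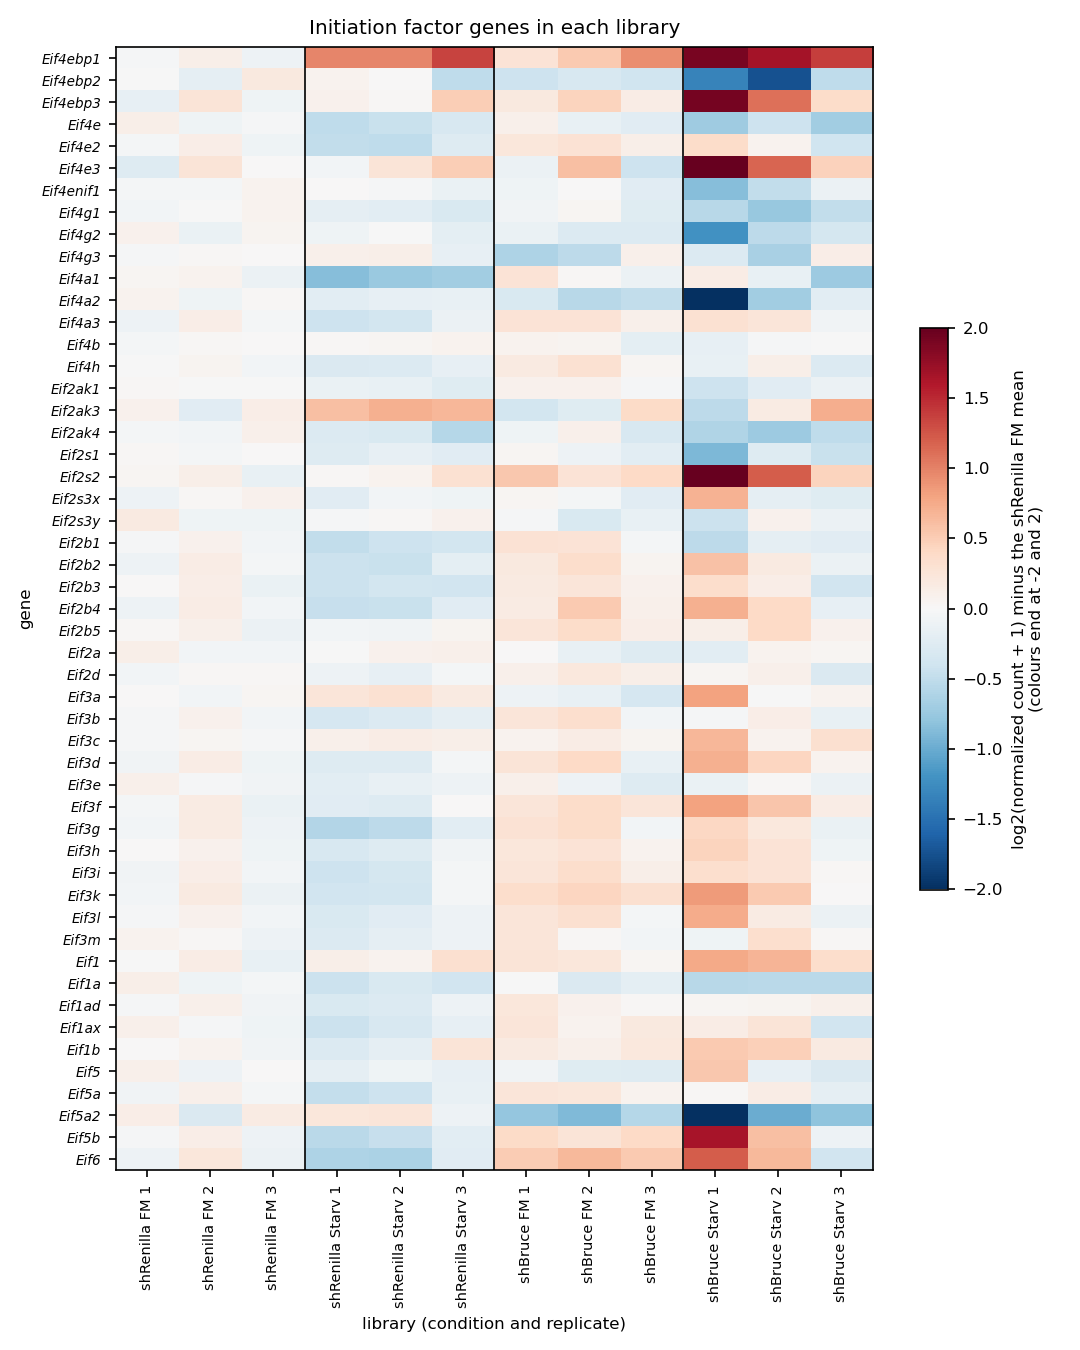
Log2(normalized count + 1) of each of the 51 tested genes in each of the 12 libraries, minus the mean of the 3 shRenilla FM libraries (colour, ending at -2 and 2), with genes grouped by role. Eif4ebp1 is higher in all 6 starved libraries, and Eif2s2, Eif5b and Eif4a2 in shBruce Starv replicate 1 stand apart from their other libraries.

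The eIF3 subunits were the largest group among the 18 higher genes. Of the 12 tested eIF3 subunits 6 were higher, Eif3k, Eif3f, Eif3g, Eif3d, Eif3i and Eif3h, where 12.8% of all genes were higher. All 12 were above 0, with a median of 0.46, but Eif3a was at -0.23 without shBruce Starv replicate 1. Without that library none of the 6 passed, with Eif3f at 0.501 (adjusted p = 0.0522), Eif3k at 0.53 (adjusted p = 0.0589), Eif3g at 0.47, Eif3d at 0.43, Eif3i at 0.40 and Eif3h at 0.295. Eif3f had 2596, 2530.4 and 3054 normalized counts in shRenilla Starv and 5256, 4449 and 3350.3 in shBruce Starv, and Eif3k had 2147, 2176 and 2732 and 5093, 4049 and 2827. The lines did not overlap for either gene, and in both replicate 1 was the highest shBruce Starv library. The log2 fold changes were 0.67 ± 0.16 (adjusted p = 0.0225, edgeR) for Eif3f and 0.76 ± 0.18 (adjusted p = 0.0232) for Eif3k. With the trends removed, Eif3f was at 0.62 and still passed (adjusted p = 0.0372), Eif3k was at 0.26, and Eif3g and Eif3h, at 0.61 and 0.43 before, were at 0.04 and 0.03. Eif3d was at 0.61 (adjusted p = 0.0298), and 32.9% of its exons lie opposite an annotated antisense gene, so without a stated strand setting its counts are uncertain.

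The largest differences among the higher genes were those of Eif4e3, Eif5b, Eif2s2, Eif6 and Eif4ebp3. Eif5b encodes the GTPase that joins the ribosomal subunits, and its normalized counts were 4564, 4825 and 5714 in shRenilla Starv and 20708, 10057 and 6151 in shBruce Starv. Its log2 fold change of 1.29 ± 0.31 (adjusted p = 0.0232, edgeR) was 0.67 (adjusted p = 0.0483) without shBruce Starv replicate 1. Eif2s2 differed by 1.21 ± 0.28 (adjusted p = 0.0225), and by 0.73 (adjusted p = 0.0483) without that library. Both genes thus passed with and without it, but not without shRenilla Starv replicate 1 or 2 or without shBruce Starv replicate 2. Both also missed with only the Starv libraries in the fit and with trends removed together with the replicate block. Eif6, which encodes the factor that keeps large subunits from joining too early, had 4518, 4473 and 5935 in shRenilla Starv and 16100.0, 10869 and 5346 in shBruce Starv. Replicate 3 of shBruce Starv overlapped the shRenilla range, and the change of 1.11 ± 0.29 (adjusted p = 0.0254) was 0.69 (adjusted p = 0.0766) without replicate 1. Eif4e3 at 1.34 (adjusted p = 0.0449) and Eif4ebp3 at 1.03 (adjusted p = 0.0299) overlapped between the lines, and without replicate 1 they were at 0.60 and 0.54 and did not pass. Of the exons of Eif5b, 15.9% lie opposite exons of Rev1. Of those of Eif4e3, 14.8% overlap another annotated gene on the same strand. The counts of these genes are uncertain to that extent.

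The other higher genes were Eif2b4 (0.73, adjusted p = 0.0268), Eif2b2 (0.59, adjusted p = 0.0286), Eif4a1 (0.56, adjusted p = 0.0426), Eif4ebp1 (0.55, adjusted p = 0.043), Eif4a3 (0.46, adjusted p = 0.029), Eif1b (0.44, adjusted p = 0.0499) and Eif1 (0.43, adjusted p = 0.0397). With the trends removed, Eif1b reversed to -0.07, and Eif4a3 and Eif1 were at 0.04 and 0.05. None of the 7 passed without shBruce Starv replicate 1 or with the trends removed. In the same comparison 1 of 7 tested fibroblast markers, S100a4, was higher (1.16). Of the 7, 5 were above 0, and the lowest, Fn1, was at -0.77 without passing. The 8 fibroblast markers summed to 128853 to 138433 in shRenilla Starv and 129669 to 160883 in shBruce Starv libraries. Of the 3 leukocyte markers Ptprc was higher (1.52) at 18.2 normalized counts or less, and Cd68 was at -0.15 without passing. The leukocyte list summed to 72 to 94 and 81 to 111. The part of these markers in the result was not tested.

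The 4 lower genes were Eif5a2, Eif4ebp2, Eif4g2 and Eif4g1. Eif5a2 had 733, 742 and 585 normalized counts in shRenilla Starv and 149, 314 and 359 in shBruce Starv, without overlap, as in FM. Its difference was -1.30 ± 0.25 (adjusted p = 0.0225, edgeR), -1.04 (adjusted p = 0.0483) without shBruce Starv replicate 1 and -0.86 (adjusted p = 0.0355) with the trends removed, past the test in these fits. The call was lost without shRenilla Starv replicate 1 or 2 and without shBruce Starv replicate 2. It was also lost with only the Starv libraries in the fit and with trends removed together with the replicate block. Eif4ebp2 differed by -0.98 ± 0.26 (adjusted p = 0.0259), from 984, 946 and 658 in shRenilla Starv to 371, 279.5 and 658 in shBruce Starv, where a library of each line reached 658. It was at -0.89 (adjusted p = 0.0704) without shBruce Starv replicate 1 and at -0.80 (adjusted p = 0.0413) with the trends removed. Eif4g2 had 21588, 22958 and 20061 in shRenilla Starv and 9964, 15983 and 18079 in shBruce Starv. Its difference of -0.55 ± 0.18 (adjusted p = 0.0415) was -0.04 with the trends removed, and that of Eif4g1 went from -0.36 (adjusted p = 0.0424) to -0.20. Without shBruce Starv replicate 1 they were at -0.35 (adjusted p = 0.0687) and -0.40 (adjusted p = 0.0609) and did not pass. The kinases Eif2ak1, Eif2ak3 and Eif2ak4 were at -0.08, -0.43 and -0.23, and did not pass.

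**Figure D5:**
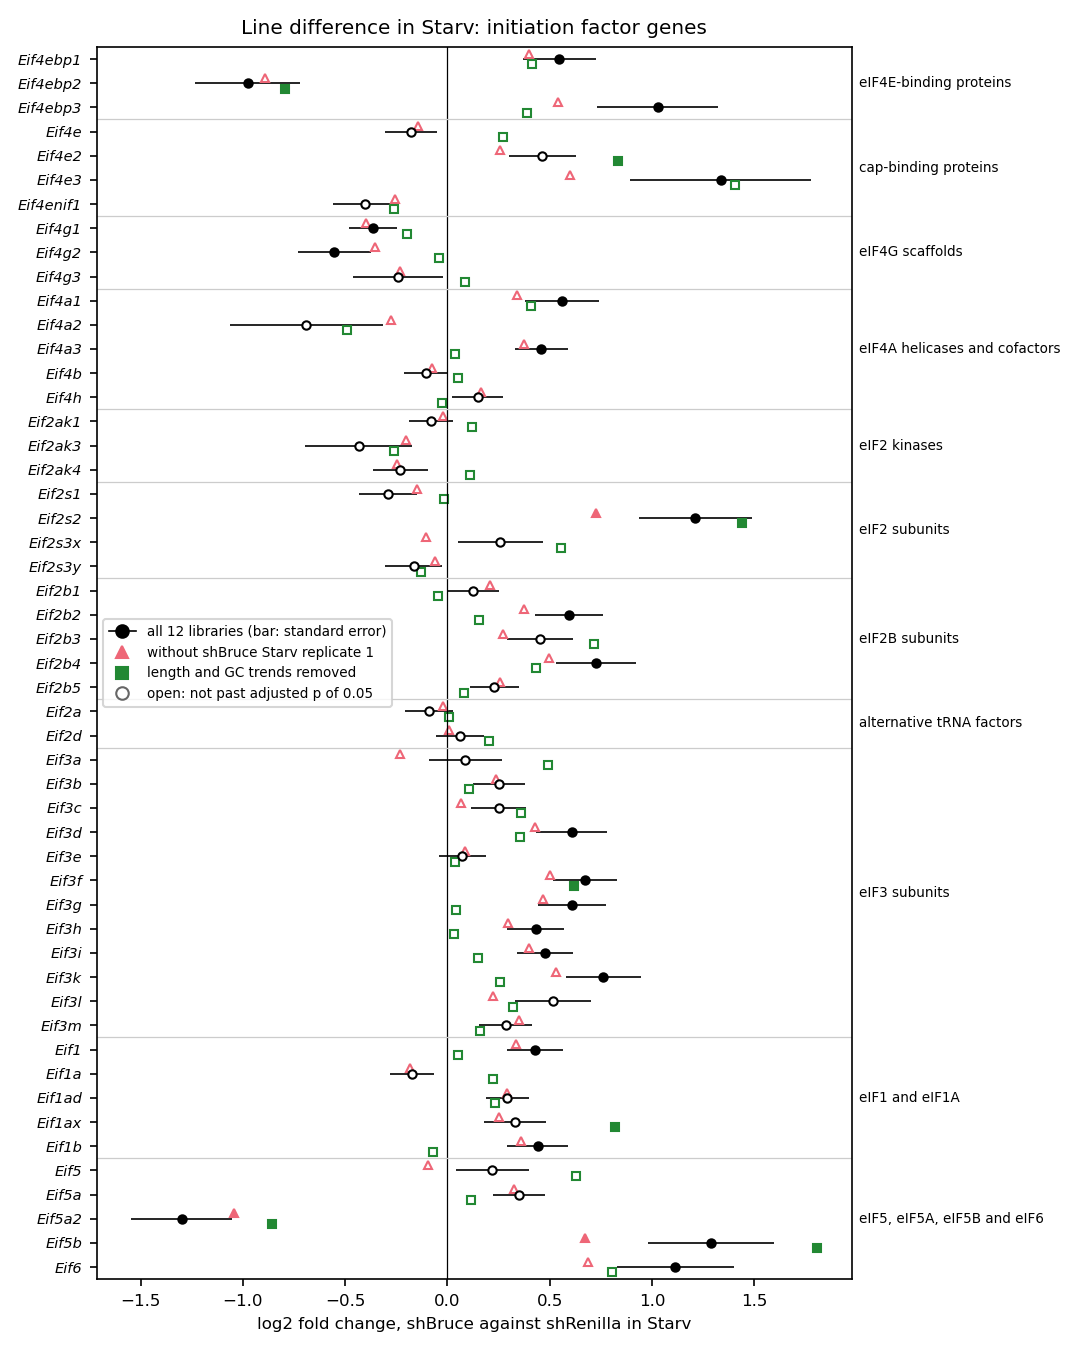
Line difference in Starv as the log2 fold change of shBruce over shRenilla (horizontal axis) for the 51 tested genes by role, with all 12 libraries (circles, standard error bars), without shBruce Starv replicate 1 (triangles) and with length and GC trends removed (squares), filled where the adjusted p is under 0.05. Filled symbols drop from 22 circles to 3 triangles and 7 squares.

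The third question is whether the lines responded differently to starvation. The interaction of line and medium passed for 0 of 51 members (edgeR), as for 0% of all genes, and 1 member was at an unadjusted p under 0.05, where 3.90% of all genes were. DESeq2 and limma-voom also called 0, with 3 and 0 at an unadjusted p under 0.05. The 1 member was Eif5b, at 0.94 (95% confidence interval 0.01 to 1.88, unadjusted p = 0.0476, adjusted p = 0.806), with -0.40 in shRenilla and 0.54 in shBruce MEFs. Without shBruce Starv replicate 3, 23 members were at an unadjusted p under 0.05 and 0 passed. The interactions of the 12 eIF3 subunits ranged from 0.07 to 0.42, but Eif3a and Eif3c were at -0.05 and -0.04 without shBruce Starv replicate 1, and Eif3b was at -0.04 without shBruce FM replicate 3 and at -0.0045 without shBruce Starv replicate 2.

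Other genes of the pathway were read from lists written from general knowledge. Of 7 genes of eIF2 phosphatase and kinase regulation, a list that includes Atf4, which acts downstream of eIF2 phosphorylation, 4 rose and none fell in each line during starvation. Of all genes 9.69% rose and 7.27% fell in shRenilla and 12.4% and 10.6% in shBruce MEFs. Ppp1r15a, which encodes the inducible subunit GADD34 of the eIF2 phosphatase, had 524, 598 and 487 normalized counts in shRenilla FM and 1524, 1574 and 1806 in shRenilla Starv. It had 450.2, 483 and 331 in shBruce FM and 1316, 1406 and 1770.3 in shBruce Starv. The groups were well apart, with log2 fold changes of 1.61 ± 0.16 (adjusted p = 3.51e-05, edgeR) and 1.83 ± 0.17 (adjusted p = 1.16e-05). Its constitutive counterpart Ppp1r15b rose by 0.57 and 0.49, the transcription factor gene Atf4 by 1.07 and 1.12, and Impact, which encodes an inhibitor of GCN2 activation, by 1.08 and 0.63 in shRenilla and shBruce MEFs. In shBruce MEFs the Starv and FM libraries overlapped for Ppp1r15b (adjusted p = 0.0412, edgeR) and for Impact (adjusted p = 0.0226).

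Of 22 partners of the initiation factors, 2 rose and none fell in shRenilla MEFs (9.09% called, against 17.0% of all genes), and 2 rose and 2 fell in shBruce MEFs (18.2%, against 23.0%). Pdcd4, which encodes an inhibitor of the eIF4A helicase, had 189, 187 and 220.4 normalized counts in shRenilla FM and 791, 772 and 793 in shRenilla Starv, and 204, 167 and 298 and 848, 867 and 829 in shBruce FM and Starv. It rose by 1.98 ± 0.18 (adjusted p = 1.01e-05, edgeR) and 1.93 ± 0.18 (adjusted p = 1.18e-05). The eIF4E kinase gene Mknk1 rose in shRenilla MEFs (0.62, adjusted p = 0.00915), Akt1s1, an mTORC1 component gene, rose in shBruce MEFs (0.61, adjusted p = 0.00867), and Ddx3x and Rps6kb2 fell there (-0.46 and -0.53). Between the lines in Starv, 3 of the 22 were higher and 4 lower, against 12.8% and 11.2% of all genes, in the comparison whose calls over all genes fell to 0% without shRenilla Starv replicate 1 or 2. Of 10 elongation and termination factors, 1 rose and 1 fell in each line (17.0% and 23.0% of all genes were called). These were Eef2k, which encodes the kinase that inhibits elongation factor eEF2 (0.74 and 0.59), and Eef1e1, a component of the tRNA synthetase complex (-1.07 and -1.03). In FM 0 of these 39 genes differed between the lines (edgeR), with 2 of the 22 partners and none of the others at an unadjusted p under 0.05.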

How the data were processed

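Poly(A)-enriched total RNA was sequenced as single reads of 50 bases. Per the labels and the methods, the authors filtered out rRNA reads, aligned the others to mm10 (STAR 2.4.0d) and made counts per gene (HTSeq 0.5.4p3). The deposited values are raw counts without normalization. The annotation and strand setting of the counting are not given in the sources used here. Of 24062 symbols, 27 had become dates (0.296% of counts), 2 were repeated, and 22724 matched GENCODE M21 on GRCm38 directly and 934 through older symbols. Of the table's columns, 0 were left unused.

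The fit was made in edgeR 4.0.16 under R 4.3.3 (TMM, filterByExpr, a mean per condition over 12 libraries, quasi-likelihood test, two-sided, Benjamini-Hochberg over 12154 genes, level 0.05). A normalized count is the count over the effective library size, scaled to a geometric mean of 1. The members' share of counts was compared with exact permutation tests, two-sided. Precision is given as the SD or the standard error of the fit. On counts drawn with known changes, 194 of 199 changed genes were recovered with 15 false calls among 12048 genes (shBruce Starv against FM). These counts had the same spread setting in every library and no length or GC trend. The measured shBruce Starv libraries differ from this, so the draw does not give the error rates in these data. Figures were made with Python 3.11.15 and matplotlib 3.10.9.

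The members and lists were chosen with earlier results of these data known. Named genes are Eif4ebp1, up to 10 rising and 10 falling members per comparison past the threshold, the members of each role and Birc6. Genes of the other lists were named where they passed, which is after their values were seen. Alternatives were DESeq2 size factors, upper-quartile normalization, DESeq2 1.42.0 (Wald test), limma-voom (limma 3.58.1), no filter, at least 10 counts in every sample, fits of only the groups compared, a block on the replicate number, length and GC trends removed (spline with 4 degrees of freedom, 12051 genes), both of these, and each of the 12 libraries left out.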

Additional observations from a re-analysis of the deposited data

How the results depend on the processing

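The count of members past the test in shRenilla Starv against FM, 5, was 2 with upper-quartile normalization (18.3% of all genes called), 2 with the replicate block (14.6%), 14 with length and GC trends removed (24.6%), 9 with both trends and block (21.6%), 22 with only the groups compared (41.9%), and 1 to 13 with a library left out (9.34% to 26.2%). In shBruce MEFs the 11 became 1 with only the groups compared (8.11% of all genes) and 3 to 18 with a library left out (15.1% to 32.7%), and limma-voom gave 3 higher and 7 lower. Between the lines in FM the 0 became 3 (1 higher, 2 lower) with only the groups compared (5.11%). Between the lines in Starv the 22 became 12 with the replicate block (15.9%), 7 with trends removed (6.90%), 0 with both (0.00823%), 0 with only the groups compared (0%), and 0 to 30 with a library left out (0% to 46.7%). The interaction stayed at 0 under every alternative run. DESeq2 called 7, 14, 0, 27 and 0 members in these 5 comparisons. Upper-quartile normalization moved the median of all genes by less than 0.1.

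Of 5559 values of single members under the alternatives, 286 lost a call and 99 gained one. Among values past the test in the reported fit or the alternative, the sign changed in 2, both of Eif1b between the lines in Starv, at -0.071 with trends removed and -0.070 with trends removed and the block. A further 205 values that passed in neither fit changed sign, 42 of them with trends removed, 41 with trends removed and the block, and 12 with upper-quartile normalization. Same-numbered libraries of different conditions did not deviate together, with correlations from -0.46 to 0.35 over 18 pairs, of which 5 were above 0.1, and 0 of 12 libraries correlated best with their own number in every other condition, so the numbers were not taken as pairs. The cause of these shifts was not tested. Depth was lowest in shBruce Starv replicate 1 (7717265 counts).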
